A study of Drosophila melanogaster with 2 samples.

Results

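The genes described are the 10 core genes of the Hippo growth control pathway, hpo, sav, wts, mats, yki, sd, ex, Mer, ft and ds, taken by name from 12473 protein-coding genes that had any candidate peak near a start site. They were examined for places where Ken, a zinc finger protein with a BTB domain that represses some targets of JAK/STAT signalling, was recovered on chromatin. Chromatin immunoprecipitation with sequencing (ChIP-seq) was done on whole Drosophila melanogaster embryos of the ken-GFP strain, which carries a Ken-eGFP fusion, collected at 0 to 24 h. There was 1 group of 2 biological replicates, with chromatin sonicated to 200 to 800 bp. An antibody against GFP was used per the description, while another field of the labels names ken as the antibody. The labels give neither the sequences that drive the fusion protein nor the sex of the embryos, and no control library was analysed here. In whole embryos of mixed stages, strong recovery in few cells and weak recovery in many cannot be told apart.

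The Hippo pathway restrains tissue growth through a cascade of kinases. The kinase Hippo (hpo), with the scaffold Salvador (sav), phosphorylates the kinase Warts (wts), which works with its partner Mats (mats). Warts in turn phosphorylates the coactivator Yorkie (yki) and so keeps it from acting in the nucleus with the TEAD-family DNA-binding protein Scalloped (sd). Expanded (ex) and Merlin (Mer) are FERM-domain proteins that feed the cascade at the cell cortex, and the giant cadherins Fat (ft) and Dachsous (ds) signal into it from the cell surface.

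A gene is called bound here when the summit of a peak in the conservative list of the authors lay within 1000 bp of any of its transcription start sites (TSSs). That list was made from both replicates and keeps peaks whose irreproducible discovery rate (IDR) is at or below 0.01, so that their rank was alike in 2 sets of reads. By this rule 4 of the 10 genes, sav, wts, yki and ex, were bound, beside 19.2% of all tested genes. The other 6, hpo, mats, sd, Mer, ft and ds, had no such summit. Only 2 of the 10, wts and ex, held the nearest TSS to their summit, beside 13.1% of all tested genes, since the summits near sav and yki lay closer to a divergent neighbour. No test over the list was made, and neither count is read as particular to these genes.

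The sequences at these places are shown first, because the summits differed in a short word. CGATA, the core of the site of the DNA-replication-related element factor DREF, was searched on both strands and stands in capitals, as CGATA or its reverse complement TATCG. The longer palindrome TATCGATA, which overlaps it, is in capitals as a whole. All lines are 5′ to 3′ on dm6.
sav and Ublcp1, the bases between their starts, chr3R:23061305-23061492, plus strand: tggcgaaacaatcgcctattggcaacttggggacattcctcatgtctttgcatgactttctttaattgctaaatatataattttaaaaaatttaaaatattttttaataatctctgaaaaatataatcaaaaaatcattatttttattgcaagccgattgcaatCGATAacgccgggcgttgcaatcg
wts, 61 bp around the promoter summit, chr3R:30806647-30806707, minus strand: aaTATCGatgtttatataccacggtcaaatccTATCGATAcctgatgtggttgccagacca
wts, 61 bp around the intronic summit, chr3R:30797474-30797534, minus strand: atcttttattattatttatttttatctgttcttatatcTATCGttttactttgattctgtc
ex, 61 bp around the upstream summit, chr2L:430224-430284, plus strand: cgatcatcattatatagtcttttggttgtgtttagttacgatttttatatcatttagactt
PGRP-LE, 29 bp around the summit upstream of sd, chrX:15802981-15803009, plus strand: tcgaggatcagtctagaTATCGATAagta
mats and Nop56, the bases between their starts, chr3R:22421069-22421160, plus strand, where no conservative peak was called: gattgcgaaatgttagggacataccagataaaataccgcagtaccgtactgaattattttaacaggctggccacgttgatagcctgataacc
The first stretch is the divergent promoter of sav and its neighbour, and the last is the divergent promoter of mats, shown as an unbound divergent promoter. The mats line does not stand for all unbound genes, since the promoters of hpo, sd, Mer and ft held CGATA. The summit near yki is not printed and had no CGATA within 100 bp. The ex line holds no CGATA, and neither does the line of mats. The capitals nearest the wts promoter summit are the 8 bases TATCGATA.

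**Figure D1:**
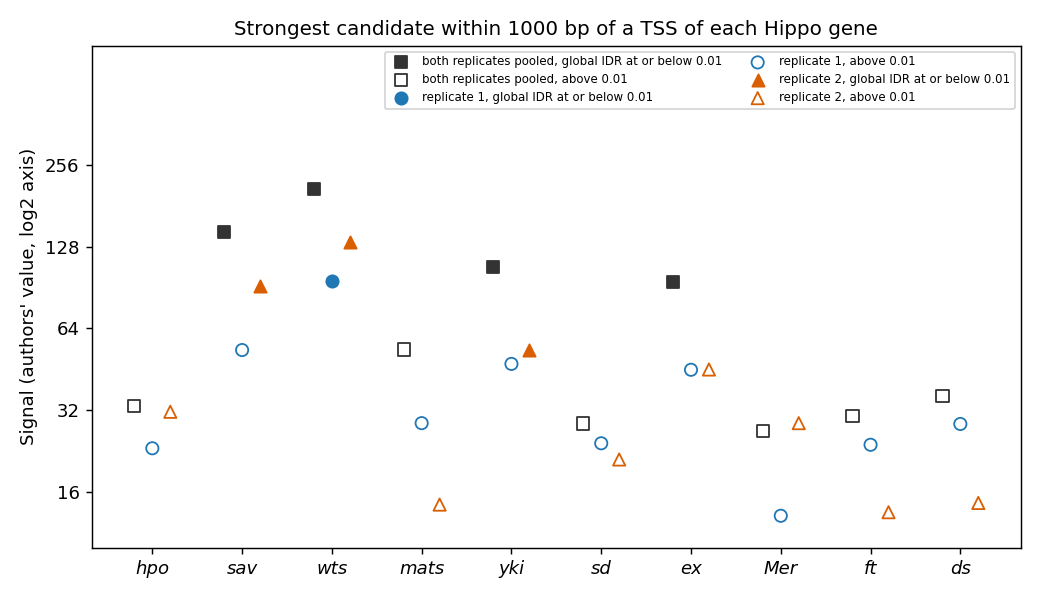
Highest signal of any candidate within 1000 bp of a TSS of each Hippo gene (y axis, the authors' value on a log2 axis) in the pooled list (squares), replicate 1 (circles) and replicate 2 (triangles), filled where the global IDR was at or below 0.01. Only wts is filled in all 3, with 209 pooled, 95.5 in replicate 1 and 133 in replicate 2, while the 6 unbound genes lie at or below 53.5 in the pooled list.

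Among the kinases and their partners, wts (FBgn0011739, chr3R:30789625-30806619, minus strand) had the strongest promoter peak of the 10 genes. The peak covered chr3R:30806590-30806749, and its summit lay 58 bp upstream of the wts TSS in sequence annotated as intergenic. Its signal, the authors' peak value with no stated scale, was 95.5 in replicate 1 and 133 in replicate 2, and 209 in the pooled list. Signal and IDR both placed it high: 76.0% of conservative peaks had a lower signal, and it was in the thresholded lists of both replicates. The summits of the replicates lay within 24 and 33 bp of the pooled one, both on the side of the wts start. At 160 bp the peak was below the median width of 410 bp in the conservative list, where 11.3% of peaks were under 200 bp wide. The peaks near sav, yki and ex each had exactly that 410 bp. How widths were set is not stated, so they are not read as the extent of recovery. The neighbour dj-1beta, the fly relative of the human Parkinson's disease gene DJ-1, starts 498 bp away on the opposite strand, 440 bp from the summit, so wts held the nearest start.

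Warts was also the only one of the 10 genes with a conservative summit inside the gene, beside 5.41% of all 13968 protein-coding genes on the main chromosome arms. Long genes hold more summits, and 239 of 1985 genes of 10 kb or more held one, a class to which wts (16995 bp), sd, ex, ft and ds belong. The summit lay in a wts intron 9115 bp from the TSS, in a peak at chr3R:30797299-30797708. Here the signal was 48.1 in replicate 1 and 35.2 in replicate 2, and 78.6 pooled, above 17.4% of conservative peaks. Neither replicate listed this peak on its own, and it was not in the other pooled thresholded list, where its −log10 global IDR was 1.91, below the 2 that an IDR of 0.01 asks for. It is therefore a weaker call than the promoter peak, carried by 1 list of 4.

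The scaffold gene sav (FBgn0053193, chr3R:23058609-23061304, minus strand) shares its promoter with Ublcp1, whose human relative encodes a phosphatase that acts on the proteasome. The start of Ublcp1 is 189 bp away on the opposite strand. The summit of the peak at chr3R:23061283-23061692 lay 5 bp from the Ublcp1 start and 184 bp upstream of that of sav. Its signal was 53.3 in replicate 1 and 91.9 in replicate 2, and 145 pooled, above 58.5% of conservative peaks. The log2 ratio of replicate 2 over replicate 1 was 0.79, higher than at 88.8% of the peaks compared. Over the 1910 conservative peaks that both replicates had a value for, this log2 ratio had a median of 0.16 and an SD of 0.57, so the sav peak stood a little over 1 SD toward replicate 2. The thresholded list of replicate 2 held the peak and that of replicate 1 did not. The lists of both replicates disagreed too: with the same signal of 145, the −log10 global IDR was 2.99 in the conservative ranking and 0.12 in the other pooled ranking. The sav and Ublcp1 promoter thus counts as bound in the conservative list and as unbound in the other.

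Neither hpo nor mats had a peak. The best pooled candidate near hpo (FBgn0261456, chr2R:19493996-19496856, minus strand), the kinase that opens the cascade, reached 33.1, with 14.8 in replicate 1 and 31.6 in replicate 2. That candidate lay 698 bp upstream of the hpo TSS but 198 bp from the start of CG15120, which runs the other way, and its −log10 global IDR was 0.13. The best value of replicate 1 near hpo, 23.2, lay elsewhere, 306 bp downstream of the TSS in a coding exon. Among tested genes hpo ranked 8131, with 34.8% of genes lower, which is within the bulk. The nearest conservative summit was 71845 bp away, between the divergent starts of the calpain gene CalpA, at 102 bp, and of hts, at 108 bp. Replicate 1 had 315 there, replicate 2 had 312 and the pooled list 636.

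Of the 6 unbound genes, mats (FBgn0038965, chr3R:22421161-22423302, plus strand) came closest by signal. Its best candidate, in an intron 453 bp downstream of a TSS, reached 53.5 pooled, above 97.9% of the candidates that did not pass and above 95.6% of those within 1000 bp of a TSS. The best values of the replicates near mats were 28.7 in replicate 1 and 14.4 in replicate 2, which lay elsewhere, 878 bp upstream in Nop56, and the −log10 global IDR was 0.20. Its start and that of Nop56, a protein of the small nucleolar ribonucleoprotein core, are 93 bp apart, closer than those of sav and Ublcp1, and no conservative summit lay between them. The nearest one was 23961 bp away among serine tRNA genes, with 121 in replicate 1, 48.0 in replicate 2 and 160 pooled. Replicate 1 was the higher there, at a log2 ratio of replicate 2 over replicate 1 of -1.34 that only 0.942% of the peaks compared went below.

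**Figure D2:**
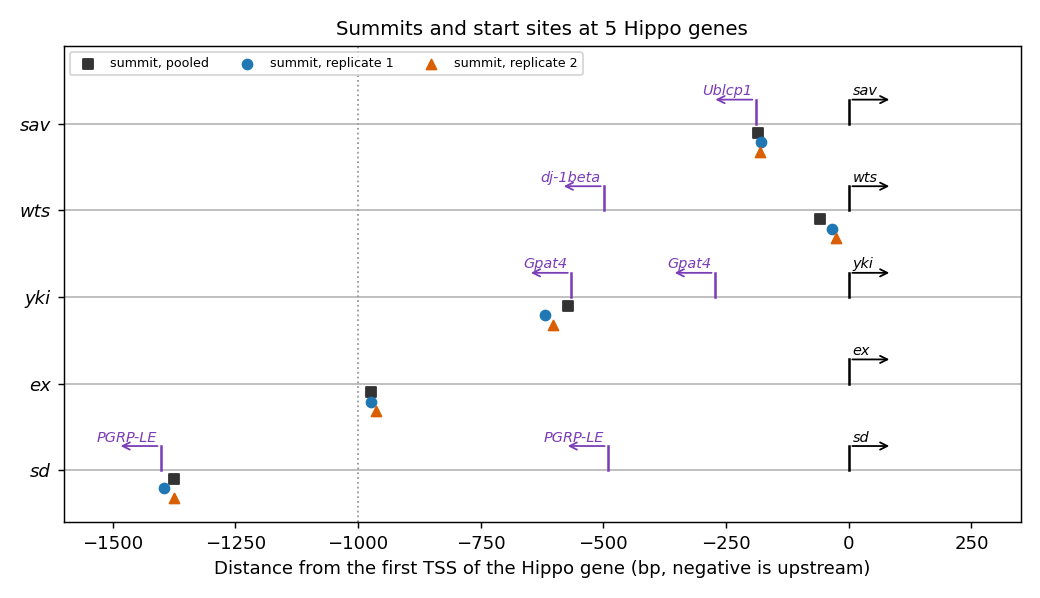
Positions of summits (square pooled, circle replicate 1, triangle replicate 2) and of start sites (arrows in the direction of transcription, black for the Hippo gene and purple for its neighbour) in bp from the first TSS of 5 Hippo genes. The dotted line marks the limit of 1000 bp. The summits of sav, yki and sd sit at the neighbour's start, that of wts sits 58 bp from the wts start and that of ex 973 bp upstream with no other start in view.

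For the effectors yki and sd, as for sav, the nearest conservative summit lay at the start of a divergent neighbour, for sd beyond the limit of 1000 bp. The summit near yki (FBgn0034970, chr2R:24065975-24068485, minus strand) was in the 5' UTR of Gpat4, an acyltransferase of glycerolipid synthesis, 7 bp from a Gpat4 start and 572 bp upstream of the yki start. The peak covered chr2R:24068852-24069261, where replicate 1 had 47.4, replicate 2 had 53.3 and the pooled list 108, above 38.4% of conservative peaks. Replicate 2 and the other pooled list held it, and replicate 1 did not, where its −log10 global IDR was 1.77. At the start of yki itself, 50 bp into its 5' UTR, a separate candidate reached 28.0 in replicate 1, 32.0 in replicate 2 and 40.2 pooled with a −log10 global IDR of 1.44, below the threshold. Yorkie's own start thus had a candidate well under the peak at Gpat4.

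Scalloped had no summit within 1000 bp of any of its 7 TSSs (FBgn0003345, chrX:15804370-15827682, plus strand). The closest conservative summit lay 1375 bp upstream of the first, in the 5' UTR of PGRP-LE, a peptidoglycan receptor of the immune response, 26 bp from a PGRP-LE start, in a peak at chrX:15802790-15803199. Its signal was 32.3 in replicate 1 and 61.7 in replicate 2, and 98.8 pooled, with a log2 ratio of 0.94 that was higher than at 93.6% of the peaks compared. Replicate 2 and the other pooled list held this peak, and replicate 1 did not. With the limit at 2000 bp sd became the fifth bound gene, beside 22.5% of all tested genes. Within 1000 bp of its own starts the best candidates reached 24.2 in replicate 1, 21.1 in replicate 2 and 28.6 pooled, and 24.0% of tested genes were lower.

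The cortical genes differed from each other. For ex (FBgn0004583, chr2L:431227-448701, plus strand) the summit lay in intergenic sequence 973 bp upstream, only just inside the limit, and no start of another gene was within 1000 bp of it. The peak at chr2L:430049-430458 had 45.1 in replicate 1 and 45.2 in replicate 2, and 94.8 pooled, above 29.1% of conservative peaks. Although its signals were alike in both replicates (log2 ratio 0.00), neither replicate listed it on its own: the −log10 global IDR was 0.07 in replicate 1 and 1.08 in replicate 2, against 2.44 in the conservative ranking. The other pooled list also held it. Merlin (Mer, FBgn0086384, chrX:19689697-19693500, minus strand) had the lowest best pooled candidate of the 10 genes, at 26.9, in its coding exon with a −log10 global IDR of 0.05. The best values of the replicates near Mer lay at other positions. They were 13.1 in replicate 1, also the lowest there, and 28.7 in replicate 2, which was not the lowest. The conservative summit nearest to Mer, 9856 bp away, lay between dome, the receptor of the JAK/STAT pathway, and Ubqn. It was strong and even, with 183 in replicate 1, 201 in replicate 2 and 390 pooled.

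Neither cadherin gene had a peak at its start. For ft (FBgn0001075, chr2L:4198404-4221796, minus strand) the best candidates within 1000 bp reached 23.9 in replicate 1, 13.5 in replicate 2 and 30.4 pooled, and for ds (FBgn0284247, chr2L:640013-714983, minus strand) 28.5 in replicate 1, 14.6 in replicate 2 and 36.2 pooled. Both genes lay in the bulk of the distribution, with 28.5% and 42.4% of tested genes lower. The conservative summit nearest to the ft start was 5203 bp away, in the 5' UTR of CG3702, with 60.1 in replicate 1, 51.4 in replicate 2 and 115 pooled.

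Within the ft gene 1 candidate stood just outside the conservative list. It lay in a coding exon 22064 bp from the TSS, at chr2L:4199527-4199936, with 42.1 in replicate 1, 29.1 in replicate 2 and 71.8 pooled. Its −log10 global IDR was 1.99 in the conservative ranking and 2.15 in the other, so the other pooled list held it, as that list's only peak inside any of the 10 genes. The intronic wts peak is its counterpart just inside the threshold, at 2.34 in the conservative ranking and 1.91 in the other. Which of the cascade's long genes holds an internal peak therefore depends on the list.

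**Figure D3:**
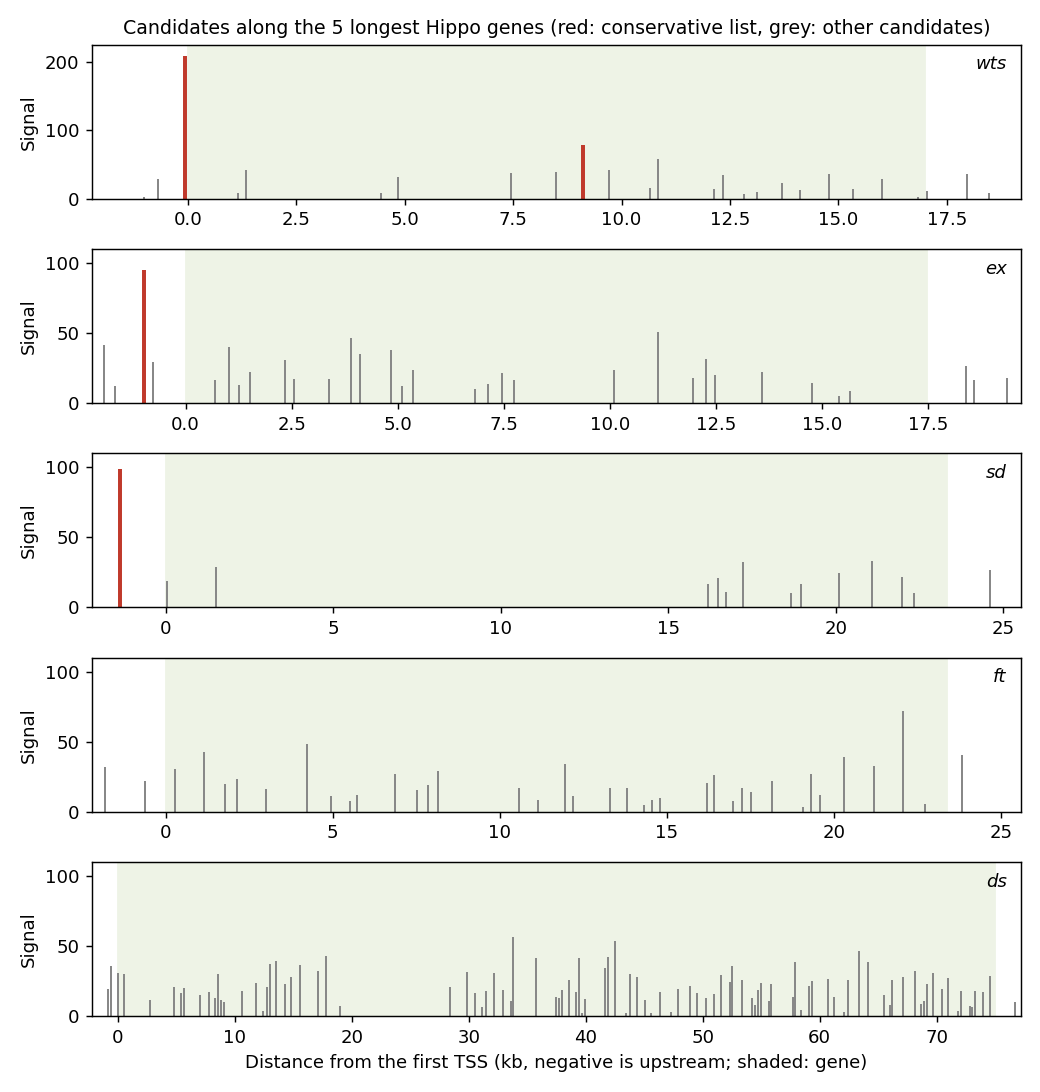
Every candidate of the conservative ranking along wts, ex, sd, ft and ds, as a line at its distance from the first TSS (kb) with its signal as height (authors' value, the scale for wts being larger), red where it is in the conservative list. Only wts has a red line inside the shaded gene, at 78.6, and the tallest grey lines inside ex, ft and ds reach 50.6, 71.8 and 56.5.

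Candidates of the conservative ranking, most of them below the threshold, lay along these genes. The density was 1.18 per kb in wts, 1.43 in ex, 1.50 in ft and 1.28 in ds, near the 1.13 per kb summed over all protein-coding genes. Scalloped stood lower, at 0.515 per kb over 23313 bp, with none between 1488 and 16193 bp from its first TSS. Yorkie and Merlin stood higher, at 2.39 per kb over only 2511 bp and 2.10 per kb over 3804 bp. Although ds is the longest of the 10 at 74971 bp and held 96 candidates, its highest value inside was 56.5, with a −log10 global IDR of 0.11.

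**Figure D4:**
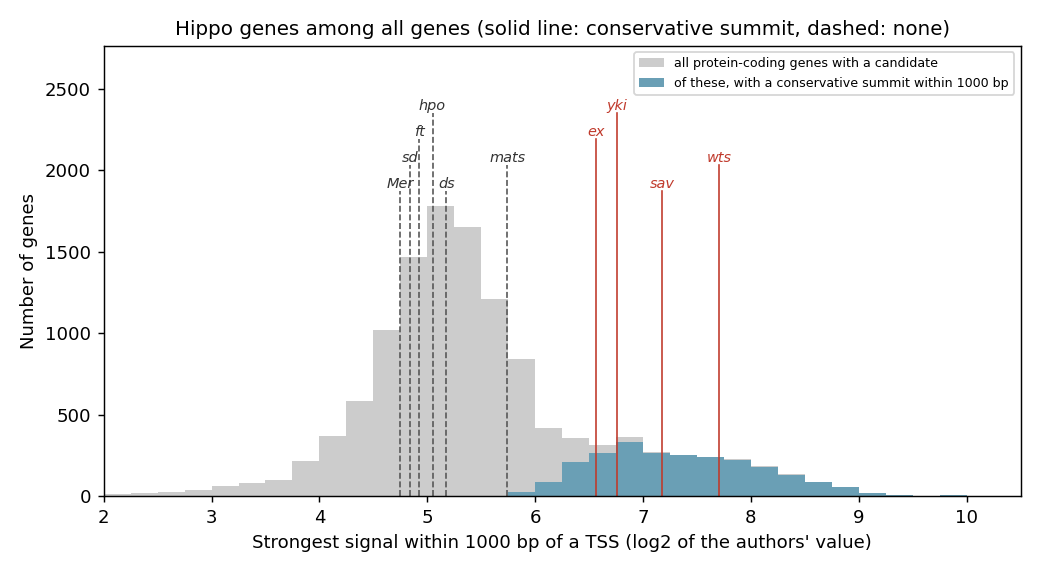
Number of tested genes (y axis) by the highest signal within 1000 bp of a TSS (x axis, log2 of the authors' value), grey for all genes and blue for those with a conservative summit, with the 10 Hippo genes marked. The bound genes wts, sav, yki and ex lie in the right shoulder, from 94.8 to 209, and the other 6 in the main mode, from 26.9 to 53.5.

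The best signals of the 10 genes, from 26.9 to 209 with a median of 44.8, stood beside a median of 39.7 over all tested genes. From the top the order was wts, sav, yki, ex, mats, ds, hpo, ft, sd and Mer, with ranks from 769 to 9921 among 12473 genes. A gap separated ex at 94.8 and mats at 53.5, while the 5 lowest genes were within 26.9 to 36.2. Neighbours among the lower genes changed places between replicates: Mer, with 13.1, was the lowest in replicate 1, and with 28.7 it was above mats, ds, ft and sd in replicate 2. The upper neighbours yki and ex were close, at 47.4 and 45.1 in replicate 1 and 53.3 and 45.2 in replicate 2. Values of 2 replicates allow no test of these steps.

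By replicate, the thresholded list of replicate 1 held a summit near wts alone, beside 14.6% of tested genes, and that of replicate 2 held summits near sav, wts and yki, beside 18.2%. The other pooled thresholded list held summits near wts, yki and ex, beside 20.7%. Only wts was bound in all 4 lists. Whether the signal has the same scale in both replicates is not known, so a ratio can only be read against those of other peaks.

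The positions of the Hippo genes were set beside those of all bound genes. Sharing a summit with a neighbour was common, at 70.7% of the 2400 bound genes, and 31.9% of them were, like sav and yki, nearest to none of their summits. The nearest summit lay at a median of 74.0 bp over all bound genes, against 58 bp for wts, 184 bp for sav, 572 bp for yki and 973 bp for ex. Distances over 500 bp, as for yki and ex, were found at 10.3% of bound genes.

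The word CGATA lay within 100 bp of the summits of sav and wts and not of yki and ex, 2 of 4, beside 75.3% of conservative summits and 20.4% of candidates that did not pass. Its nearest centre was 5 bp from the sav summit and 4 bp from that of wts. The sav copy overlaps the Ublcp1 start and so runs past the printed line, whose capitals mark another copy 167 bp upstream of the sav TSS, while the wts copy is the one in capitals. The intronic wts summit and the PGRP-LE summit upstream of sd had it as well, at 10 and 5 bp. TATCGATA was within 100 bp of the wts summit only, 1 of 4, beside 29.4% of conservative summits and 0.493% of candidates that did not pass. The consensus described for Ken, searched as GNGAAAG or GNGAAAT, was at 0 of 4, beside 23.2% of conservative summits and 25.2% of candidates that did not pass, and GGAATG, the core of the site of TEAD-family factors such as Scalloped, was at 0 of 4, beside 6.60% and 10.4%. GAGAG, GGTCACACT and the STAT92E words, TTC and GAA with 3 or 4 bases between them, were also at 0 of 4 within that window, beside 19.1%, 4.28%, 5.66% and 6.20% of conservative summits. Of candidates that did not pass, 23.0%, 0.194%, 5.08% and 5.53% had them, in the same order. Within 200 bp the counts were 3 of 4 for GAGAG (wts, yki and ex), 1 for the Ken consensus (ex) and 1 for GGAATG (sav). Beside these stood 31.9%, 41.7% and 13.6% of conservative summits, and 40.0%, 43.6% and 19.6% of candidates that did not pass. A match is a word in the genome and not a site, and these windows say nothing of the factors themselves.

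In the promoters themselves, 250 bases before to 50 after a TSS, CGATA was present in 8 of the 10 genes, all but mats and ds, beside 53.9% of tested genes. That share was 88.2% among bound and 45.7% among unbound genes, so the word also stood at Hippo genes without a peak. TATCGATA was in the promoters of hpo and wts, beside 10.8% of all tested, 35.5% of bound and 4.95% of unbound genes. In hpo it was centred 132 bp upstream of the TSS, where the nearest candidate, 147 bp upstream, reached 11.0 in replicate 1, 24.4 in replicate 2 and 31.1 pooled. Warts had 3 copies, 52 bp upstream and 7 and 21 bp downstream of its TSS, and its peak. The yki promoter had a CGATA 11 bp upstream of its TSS, away from the summit at Gpat4.

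Of 58 other genes of the pathway, listed by role, 17 had a conservative summit within 1000 bp of a TSS, beside the 19.2% of all tested genes, and 13 of the 17 held the nearest TSS of a protein-coding gene. The 58 are not all tested genes, since mir-ban is not protein-coding and some, such as Zyx, had no candidate near a TSS. Over all protein-coding genes, with or without a candidate, the share was 17.2%. Among the upstream inputs 9 of 26 were bound. The peaks at genes of kinases that act on Hippo or Warts had 52.1 in replicate 1, 89.2 in replicate 2 and 139 pooled at Tao, and 93.0, 166 and 263 in the same order at hppy. At Pez, whose product is a partner of Kibra, the values were 85.6, 101 and 176, and at Fbxl7, an F-box gene of Fat signalling, 35.0, 37.5 and 68.3. Genes of cell polarity and adhesion made up the other 5, namely crb, ed, scrib, dlg1 and aPKC. The highest of them was ed, an adhesion protein, with 243 in replicate 1, 153 in replicate 2 and 389 pooled, and the others ranged from 70.1 at crb to 244 at dlg1, with aPKC, at 97.4, nearer to a start of ckn.

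Genes of the STRIPAK phosphatase complex and of the SIK kinases, which oppose Hippo or Salvador, were bound in 4 of 10 cases, beside the 19.2% of all tested genes. The same share stands beside the counts of the nuclear partners and targets that follow, and no difference between the role groups was tested. Pp2A-29B, which encodes the structural subunit of the phosphatase, had the highest value of all these genes, with 217 in replicate 1, 366 in replicate 2 and 590 pooled, and Sik3 had 165, 176 and 353. Ccm3 and Mob4 reached 210 and 206 pooled, the summit of Mob4 lying 9 bp from a start of Rab2. Of 9 nuclear partners of Yorkie and Scalloped, 3 were bound, namely Tgi, mask and Ncoa6. The corepressor gene Tgi had a summit of 103, 29 bp from a TSS, and one of 109, 524 bp from a TSS and nearest to Abp1. The cofactor gene mask had 305, nearest to Spase22-23, and the coactivator gene Ncoa6 had 136, nearest to cype. Among 13 described targets of Yorkie only the glypican gene dlp was bound, with 68.4 in replicate 1, 145 in replicate 2 and 205 pooled, 59 bp from its TSS. CycE, mir-ban, Myc, dally, wg, vn, upd1, upd2, upd3 and Ilp8 had no conservative summit there.

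**Figure D5:**
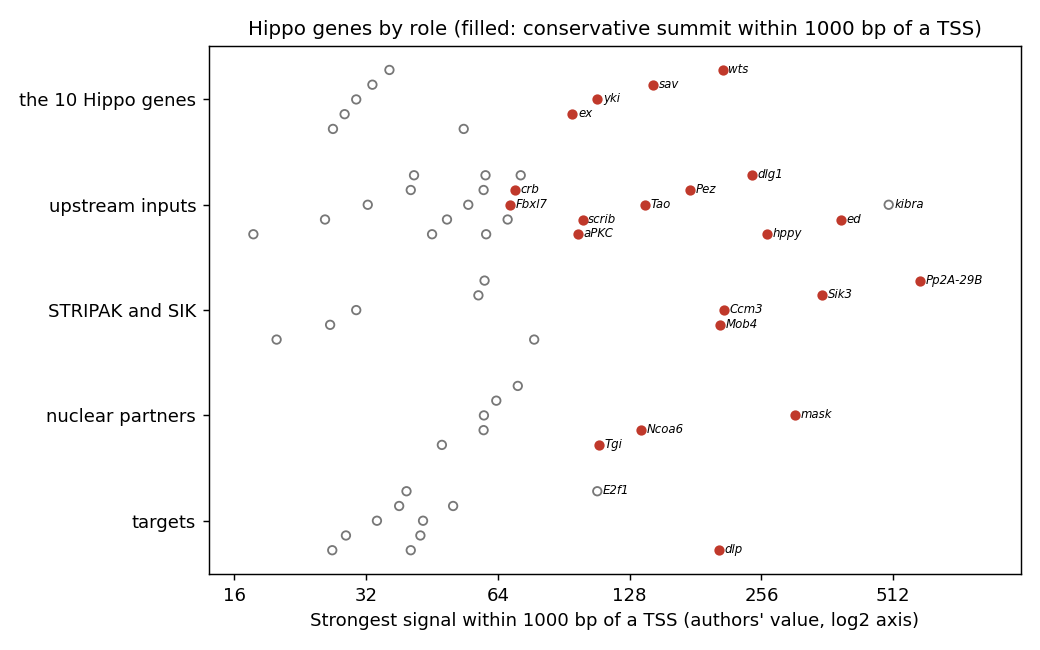
Highest signal within 1000 bp of a TSS (x axis, authors' value on a log2 axis) for the 10 Hippo genes and, below them, 4 groups of other pathway genes, filled where a conservative summit lay within that distance. Filled points run to 209 in the 10 genes and to 590 in the STRIPAK and SIK group, the open point at 500 is kibra, and 6 genes without a candidate in this ranking (Zyx, l(2)gl, Schip1, tsh, Diap1 and Myc) have no point.

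For 3 further genes, picked out after their values were seen, a candidate reached the threshold in at least 1 ranking and the conservative list held none near a TSS. The start of kibra, which encodes a cortical partner of Merlin and Expanded, had a candidate of 220 in replicate 1, 277 in replicate 2 and 500 pooled, with a −log10 global IDR of 5 in every ranking, and was in no thresholded list. It was 1 of 81 candidates on the main arms that reached the threshold in the conservative ranking and were not in the conservative list, and no source used here gives the step that left them out. E2f1, a cell cycle target, was another, with 50.8 in replicate 1, 70.3 in replicate 2 and 108 pooled. Its −log10 global IDR was 1.23 in replicate 1, below the threshold, and 3.30 in replicate 2. Diap1, the apoptosis inhibitor gene induced by Yorkie, had no candidate near a TSS in the conservative ranking, yet a peak of 146 in the other pooled list and of 66.5 in that of replicate 1. In replicate 2 it had no candidate near a TSS, so the replicates differed there as well. None of the 81 lay in any of the 10 core genes or within 1000 bp of them. The unbound state of the remaining pathway genes, Rassf, jub, msn, app, dachs, fj, dco, Dlish, lft, sdt, Patj, Git, kst, Cka, Strip, Slmap, Fgop2, mts, Sik2, Wbp2, hth, Hipk, Trl and vg, holds for the conservative list. In the other pooled list Strip and vg were bound and crb was not, with a −log10 global IDR of 1.44 there. Neither replicate listed the crb peak on its own, nor those of Fbxl7 and aPKC, which the other pooled list held. Replicate 1 listed the scrib peak, where replicate 2 had no candidate within 200 bp.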

How the data were processed

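Peak lists from Ken-eGFP ChIP-seq of 2 biological replicates were used as deposited, on dm6 per the labels. Neither the aligner nor the peak caller is named in the sources used here. The signal, the IDR score and the −log10 global IDR of each peak are the authors' values, deposited without a stated scale for the signal. Every ranked list was tied to its thresholded list by identical coordinates. Read depth is unknown, so no interval or floor is given. The 2 ranked lists of both replicates hold 16 further columns with no header, which were not used.

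Genes and TSSs came from Ensembl release 115 and sequence from the release 6 assembly, which matches dm6, and only the main chromosome arms were used. No printed sequence comes from 2R. A replicate's signal at a peak is that of its nearest candidate summit within 200 bp. The best values of a replicate near a gene are its own highest within 1000 bp of a TSS, so they can lie at other positions than the pooled one. Tested genes are protein-coding with any candidate there. Scripts ran in Python 3.11.15 with numpy 2.4.6, pandas 2.3.3 and matplotlib 3.10.9, and were tested on simulated data.

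The members and gene lists were chosen with earlier results of these data known. Named were all 10 members, genes starting within 1000 bp of their summits, the nearest conservative summit of each unbound member (that of ds is not reported here), and bound genes of the role lists. With 1 group of 2 replicates no test was made. Alternatives changed the list, the IDR, the TSS distance, the replicate, the background, the matching distance and the word window.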

Additional observations from a re-analysis of the deposited data

How the results depend on the processing

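The count of bound Hippo genes depended on the settings. Of the 4 genes sav, wts, yki and ex, 1 (wts) was left at a global IDR of 0.001 or below, 2 (sav and wts) with a TSS limit of 500 or 200 bp or with the stronger 50% of peaks, and 2 (wts and ex) when a summit counted only for the gene with the nearest TSS, a choice made after the data were seen. With 1 replicate left out at a time the count was 1 to 3. It was 3 in the other pooled list, 5 at 2000 bp and 4 when any base of the peak could count. The share of all tested genes was 10.4% at the stricter IDR and 11.9% with the stronger peaks, beside 19.2%. It was 17.3% at 500 bp, 14.3% at 200 bp, 22.5% at 2000 bp and 19.8% when any base could count. By nearest TSS the share was 13.1%, and in the other pooled list 20.7%. With replicate 1 left out it was 18.2%, and with replicate 2 left out 14.6%. The count of genes with a summit inside was 0 at the stricter IDR, with the stronger peaks and with either replicate left out, and 1 in the other pooled list, where the gene was ft instead of wts. The other Hippo genes bound numbered 10 at the stricter IDR, 13 by nearest TSS, 19 in the other pooled list and 14 to 15 with a replicate left out, beside 17. The shares of all tested genes given above for each setting stand beside these counts too. The cause of these shifts was not tested. The CGATA count stayed at 2 in windows of 50 and 200 bp. The log2 ratios between replicates at the peaks of sav, wts, yki and ex were the same under each of the 3 other ways of matching. No paired analysis was possible because the series has 1 group. Unknown depth and 2 replicates limit every value above.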
